A study of Mus musculus with 11 samples.

Results

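The genes described here code for 7 enzymes of cholesterol synthesis: Hmgcs1, Mvd, Idi1, Fdps, Sqle, Lss and Dhcr7. They were picked by symbol as targets of the transcription factor SREBP2. All 7 were found among the 54838 Ensembl genes of the count tables, and all 7 were among the 16073 genes with enough reads to be tested. Each makes an intermediate or the end product of the pathway. None is a gene of cholesterol uptake, and the 7 do not take in every enzyme of the route.

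RNA was sequenced from E14 cells, a mouse embryonic stem cell (ESC) line, taken 36 h after transfection with siRNA. The control siRNA group, which received a scramble sequence, has 3 libraries, and the groups CMTR1 siRNA 1 and CMTR1 siRNA 2 have 4 libraries each. CMTR1 is the enzyme that methylates the ribose of the first transcribed nucleotide next to the mRNA cap, and the comparison asks how RNA levels change when it is depleted. All 3 groups share the line, the LIF-containing culture medium on gelatin, the 36 h of treatment and the rRNA depletion, and no untransfected cells are among the 11 libraries. The study's methods call the sequenced samples biological replicates but give fewer of them than the CMTR1 siRNA groups hold, and the labels do not say which libraries came from separate cultures. The p-values measure the spread between these libraries, which may be technical.

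Cholesterol is built from acetyl-CoA through mevalonate and the isoprenoid units isopentenyl and farnesyl diphosphate, which are joined to squalene, closed into lanosterol and trimmed to cholesterol. When the endoplasmic reticulum is low in sterol, the SREBP2 precursor is carried by SCAP to the Golgi, is cut there by the site-1 and site-2 proteases, and its released part enters the nucleus. There it binds sterol regulatory elements, usually beside sites for NF-Y and Sp1, and raises most enzymes of the route together. Cholesterol and its isoprenoid precursors are needed for membranes, protein prenylation and dolichol, and dividing cells draw on all of them.

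Promoter windows of 300 bases, from 250 before to 50 after an annotated start (RefSeq, GRCm38.p6), were on hand for 5 of the 7 genes: Hmgcs1, Mvd, Idi1, Lss and Dhcr7. Fdps and Sqle had no entry. The windows of Hmgcs1, on the plus strand at chr13:119690101-119690400, and of Idi1, on the plus strand at chr13:8885356-8885655, are printed because Hmgcs1 had the only sterol element match and Idi1 was the only enzyme to pass the test described below. Capitals mark matches to TCACNCCAC (sterol regulatory element) and to CCAAT (NF-Y), each read on both strands, so that ATTGG is CCAAT on the other strand.
Hmgcs1: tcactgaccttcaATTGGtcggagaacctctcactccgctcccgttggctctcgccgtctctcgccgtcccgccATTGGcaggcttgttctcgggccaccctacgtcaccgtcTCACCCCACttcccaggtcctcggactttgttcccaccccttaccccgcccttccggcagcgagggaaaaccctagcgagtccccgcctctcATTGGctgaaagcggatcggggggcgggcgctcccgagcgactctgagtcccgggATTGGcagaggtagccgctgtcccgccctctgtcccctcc
Idi1: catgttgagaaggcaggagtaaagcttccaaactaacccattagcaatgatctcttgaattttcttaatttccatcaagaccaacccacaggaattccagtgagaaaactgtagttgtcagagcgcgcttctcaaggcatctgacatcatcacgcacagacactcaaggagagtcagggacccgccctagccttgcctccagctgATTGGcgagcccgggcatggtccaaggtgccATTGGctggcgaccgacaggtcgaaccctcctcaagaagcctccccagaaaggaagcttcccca

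The Hmgcs1 window held TCACCCCAC on the gene's own strand, starting 137 bases before the start. The letters TCACNCCAC occur in 1.24% of all 32851 promoter windows of this length, CCAAT in 37.4% and GGGCGG (Sp1) in 35.7%. CCAAT stood in the windows of all 5 genes, with 4 matches in Hmgcs1, 2 each in Idi1 and Mvd, 1 in Lss, and 2 in 1 of the 3 windows of Dhcr7. GGGCGG also stood in all 5, with 1 to 3 matches per gene apart from Dhcr7, where it was in 2 of 3 windows. These matches describe letters in the window and do not show binding. No motif match overlapped another.

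Reads assigned to genes ranged from 6738478 to 8382318 per library. Of ESC markers, 8 of 8 were tested and their summed level was 1916 to 2019 CPM (counts per 1000000 gene-assigned reads) in the control siRNA libraries, 1644 to 1810 with CMTR1 siRNA 1 and 1731 to 1808 with CMTR1 siRNA 2. The summed ESC markers of both CMTR1 siRNA groups lay below every control library. Of the 8, 5 passed the test as lower with siRNA 1 and 3 with siRNA 2. Of all 16073 genes tested, 316 were called as lower with siRNA 1 and 571 with siRNA 2. Summed markers of other lineages were far below: 36.3 to 49.8 CPM for 5 primitive endoderm genes, 5.82 to 8.61 for 4 mesoderm genes, 77.3 to 106 for 4 neural genes, and 21.7 to 35.2 for 5 fibroblast genes. Neural sums overlapped, at 87.4 to 93.9 CPM in control, 93.6 to 106 with siRNA 1 and 77.3 to 99.1 with siRNA 2. Of 3 neural genes tested, 0 were called with either siRNA against control. Pax6, named after its values were seen, was called as lower with siRNA 2 than with siRNA 1 (-0.68), as were 475 of all 16073 genes. Fibroblast markers were at 29.7 to 35.2 CPM in CMTR1 siRNA 2 and at most 26.0 in the other libraries, but the genes of this list did not move together. With siRNA 2, Col1a1 was called as higher (log2 fold change 0.75) and Col3a1 as lower (-1.42) of the 4 that were tested, both named here after their values were seen. No marker was at 0 in every library, and the part of these differences in the results on the enzymes was not tested. In a bulk sample, fewer cells of a type and less RNA per cell cannot be told apart.

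Cmtr1 itself had 17.9 to 21.7 CPM in the control siRNA libraries, 16.2 to 21.3 with CMTR1 siRNA 1 and 15.6 to 19.5 with CMTR1 siRNA 2, and the groups overlapped. Its log2 fold change was -0.09 ± 0.11 (SE) with siRNA 1 and -0.25 ± 0.11 with siRNA 2, and neither passed the test (edgeR quasi-likelihood test, adjusted p = 0.743 and 0.144). Of the coding bases of Cmtr1, 96.1% are also exons of other annotated genes on the same strand, and 63.7% of all its exon bases lie under no other exon of that strand. How much of its mRNA these counts read was not tested. Every direction below rests on the libraries as labelled.

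In the control siRNA libraries the enzymes covered a wide range of levels. Per kilobase of annotated exon, Hmgcs1 was the most abundant of the 7 at 71.3 ± 2.2 CPM per kb (SD, n = 3), a level above that of 96.6% of the genes tested. Sqle followed at 38.7 ± 0.48, then Mvd at 18.5 ± 0.10, Lss at 12.2 ± 0.18, Dhcr7 at 9.87 ± 0.39, Idi1 at 7.79 ± 0.48 and Fdps at 2.07 ± 0.12 CPM per kb. The ranges of neighbours in this order did not overlap among the 3 control libraries. Annotated exon length counts every isoform, so a gene with long minor isoforms, such as Lss with 10787 bases of exon, is placed low.

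Fdps lies on chromosome 3 at 89093588 to 89101959 on the minus strand, and 85.9% of its coding bases are also exons of an overlapping gene on the same strand, while 73.3% of all its exon bases lie under no other exon. The files set reads that fit several genes apart as ambiguous, 137308 to 164565 per library in the 10 that list them, and whether Fdps reads are among them was not tested. Gm43738, one of the 2 overlapping genes, was itself listed with 1 read over all 11 libraries. The other, Gm22935, had 84 reads over the 11 libraries, from 1 to 11 in each. Of the 75-base words (the read length) in the protein-coding transcripts of Fdps, 58.5% also occur in other annotated genes. Idi1, on chromosome 13 at 8885501 to 8892451 on the plus strand, shares 18.9% of such words with 4 other annotated genes, which held 6 reads in all 11 libraries together. The coding transcripts of the other 5 enzymes share none, and their coding bases lie under no other exon of the same strand. Idi1 and Fdps are therefore uncertain in level. Antisense genes overlap exons of Hmgcs1, Idi1 and Lss. The kit keeps strand, the strand setting of the counting is not given in the sources used here, and these antisense genes had 0 to 2 reads in any library.

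**Figure D1:**
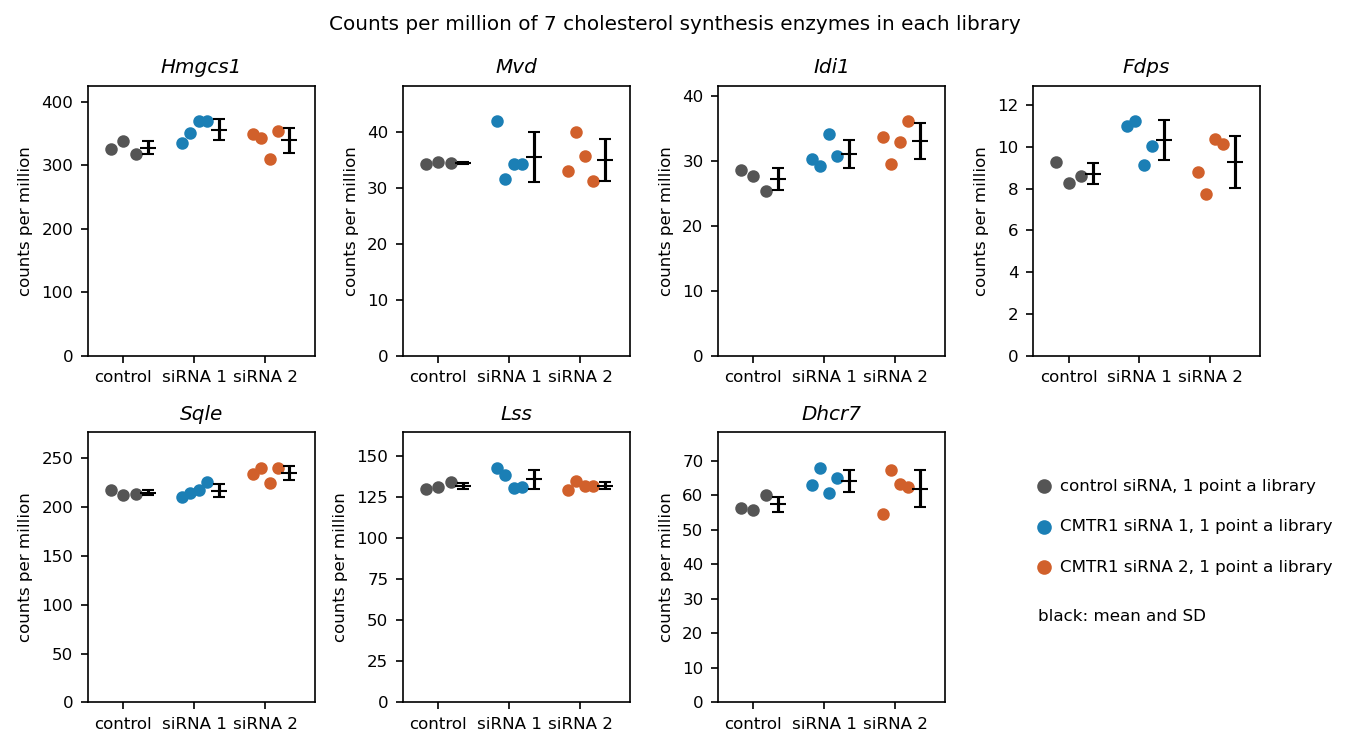
CPM of each of the 7 enzymes (vertical axis, from 0) in the 3 groups (horizontal axis), with 1 point for each library and the mean and SD in black. Idi1 is above its control range in every library of both CMTR1 siRNA groups, Sqle in every library of siRNA 2 but not of siRNA 1, and Dhcr7 in every library of siRNA 1 but not of siRNA 2, while Mvd and Lss overlap throughout.

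After CMTR1 siRNA, RNA of the 7 enzymes stayed near its control level or was slightly higher, and only Idi1 with siRNA 2 passed the test. Calls are at an adjusted p of at most 0.05 (edgeR quasi-likelihood test, Benjamini-Hochberg over all genes tested). With CMTR1 siRNA 1, 0 of 7 were called, against 4.67% of all genes. In that comparison 3 of the 7 had an unadjusted p under 0.05, as had 2698 of all 16073 genes. With CMTR1 siRNA 2, 1 of 7 was called, and it was higher. Of all genes, 9.72% were called with siRNA 2, and 6.17% were called as higher. Between the CMTR1 siRNAs 0 of 7 were called, against 7.44% of all genes. There 1 of 7 had an unadjusted p under 0.05, as had 3394 of all 16073 genes. A test of any difference among the 3 groups called 0 of 7, against 13.7% of all genes. Idi1 (adjusted p = 0.0511) and Sqle (adjusted p = 0.0581) came nearest in it. DESeq2 called 0 of 7 in every one of these comparisons. Of all 16073 genes it called 450 with siRNA 1, 874 with siRNA 2, 674 between the siRNAs and 1356 for any difference. Of the genes that edgeR called, 57.9% were higher with siRNA 1 and 63.4% with siRNA 2. With TMM scaling, which allows for differences in RNA composition, these shares were 46.4% and 49.8%.

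The estimates leaned to the higher side. The log2 fold change against control was above 0 for 7 of 7 enzymes with each CMTR1 siRNA, and with TMM scaling for 6 of 7 with siRNA 1 and 5 of 7 with siRNA 2. Of all genes tested, 56.8% were above 0 with siRNA 1 and 57.1% with siRNA 2. With TMM scaling 8211 of all 16073 were above 0 with each CMTR1 siRNA. The median log2 fold change of the 7 was 0.12 with siRNA 1 and 0.09 with siRNA 2, where the median of all genes was 0.02 and 0.03. Libraries of siRNA 1 lay wholly above the control libraries for 2 of 7 enzymes (9.28% of all genes), and those of siRNA 2 for 2 of 7 (12.4% of all genes). The 2 comparisons share the same 3 control libraries, so they are not independent of each other.

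**Figure D2:**
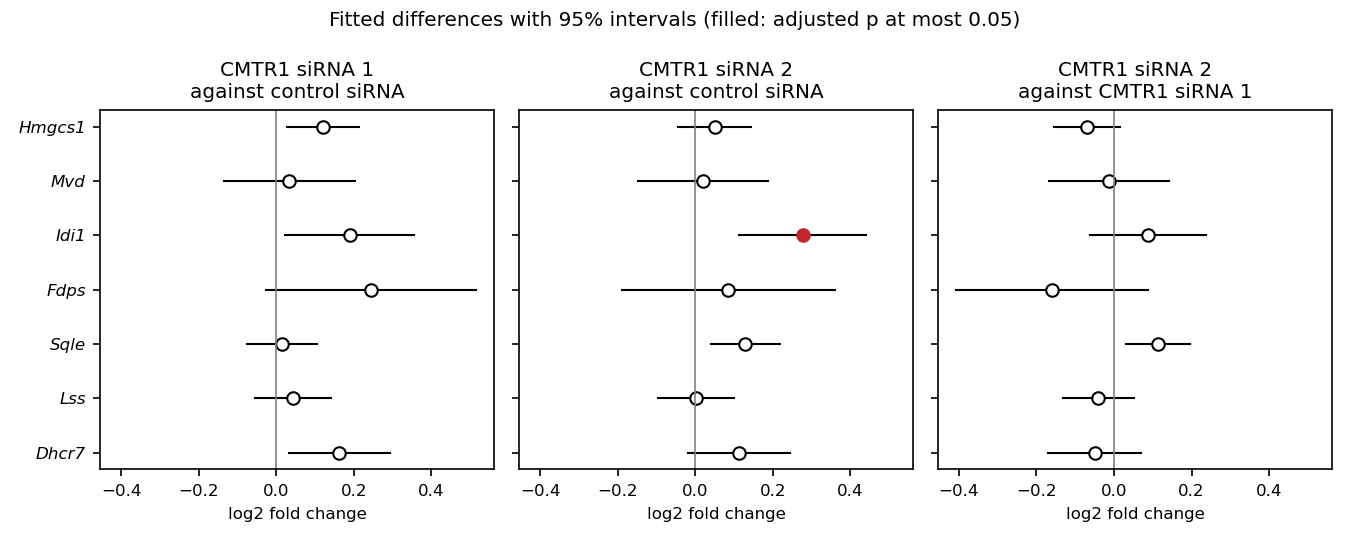
Log2 fold change (horizontal axis) of each enzyme (vertical axis) in the 3 comparisons, with 95% intervals of 1.96 standard errors and filled points for an adjusted p of at most 0.05. Only the point of Idi1 with CMTR1 siRNA 2, at 0.28, is filled, and the intervals of Hmgcs1, Idi1 and Dhcr7 with siRNA 1, of Idi1 and Sqle with siRNA 2, and of Sqle between the siRNAs lie above 0.

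The first enzyme of the 7 in the route is Hmgcs1, which joins acetyl-CoA to acetoacetyl-CoA to give HMG-CoA. It had 327, 338 and 318 CPM in the control siRNA libraries, 335, 351, 370 and 369 with CMTR1 siRNA 1, and 350, 343, 310 and 354 with CMTR1 siRNA 2. One siRNA 1 library lay inside the control range and 3 above it, and siRNA 2 replicate 3 was below all controls. The log2 fold change was 0.12 ± 0.05 (SE) with siRNA 1 (edgeR adjusted p = 0.154) and 0.05 ± 0.05 with siRNA 2 (adjusted p = 0.565). The 95% interval with siRNA 1 ran from 1.9% to 16.0% higher, and with siRNA 2 from 2.9% lower to 10.5% higher.

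Mvd decarboxylates diphosphomevalonate to isopentenyl diphosphate, the isoprenoid unit. Its control libraries were close together at 34.3, 34.7 and 34.5 CPM. Those of CMTR1 siRNA 1 were at 41.8, 31.5, 34.2 and 34.2 CPM and those of siRNA 2 at 33.0, 39.8, 35.6 and 31.2 CPM, so that each CMTR1 siRNA group had libraries on both sides of the control values. The log2 fold change was 0.03 ± 0.09 with siRNA 1 and 0.02 ± 0.09 with siRNA 2 (edgeR adjusted p = 0.896 and 0.922). Both estimates were small beside their error and turned below 0 when 1 library, siRNA 1 replicate 1 (-0.05) or siRNA 2 replicate 2 (-0.05), was left out. The siRNA 2 estimate was also below 0 with TMM scaling and with DESeq2.

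Idi1 interconverts isopentenyl and dimethylallyl diphosphate, the pair from which longer isoprenoids are built. It had 28.7, 27.8 and 25.4 CPM in the control siRNA libraries. With CMTR1 siRNA 1 it had 30.4, 29.3, 34.2 and 30.7 CPM, and with CMTR1 siRNA 2 it had 33.8, 29.6, 33.0 and 36.2 CPM. All 8 CMTR1 siRNA libraries were above all 3 controls, the closest being siRNA 1 replicate 2 and siRNA 2 replicate 2. These values rest on 189 to 293 reads per library.

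With CMTR1 siRNA 2, Idi1 rose by 0.28 ± 0.08 (SE) on the log2 scale (edgeR quasi-likelihood test, adjusted p = 0.0274), or 21.2% with a 95% interval of 8.2% to 35.8%. With siRNA 1 its log2 fold change was 0.19 ± 0.08, which did not pass the test (adjusted p = 0.231). The difference between the siRNAs, 0.09 ± 0.08, did not pass either (adjusted p = 0.563), with an interval of -0.06 to 0.24. The siRNA 2 call was kept in 13 of 19 alternatives and ended with DESeq2 (adjusted p = 0.144), with a replicate block (0.0529), and without control replicate 2 (0.0725), control replicate 3 (0.159), siRNA 2 replicate 1 (0.0632) or siRNA 2 replicate 4 (0.1). The estimate stayed between 0.23 and 0.33 in all 19. In the word comparison above, Idi1 shares 18.9% of its words with other genes, and its call carries that limit.

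**Figure D3:**
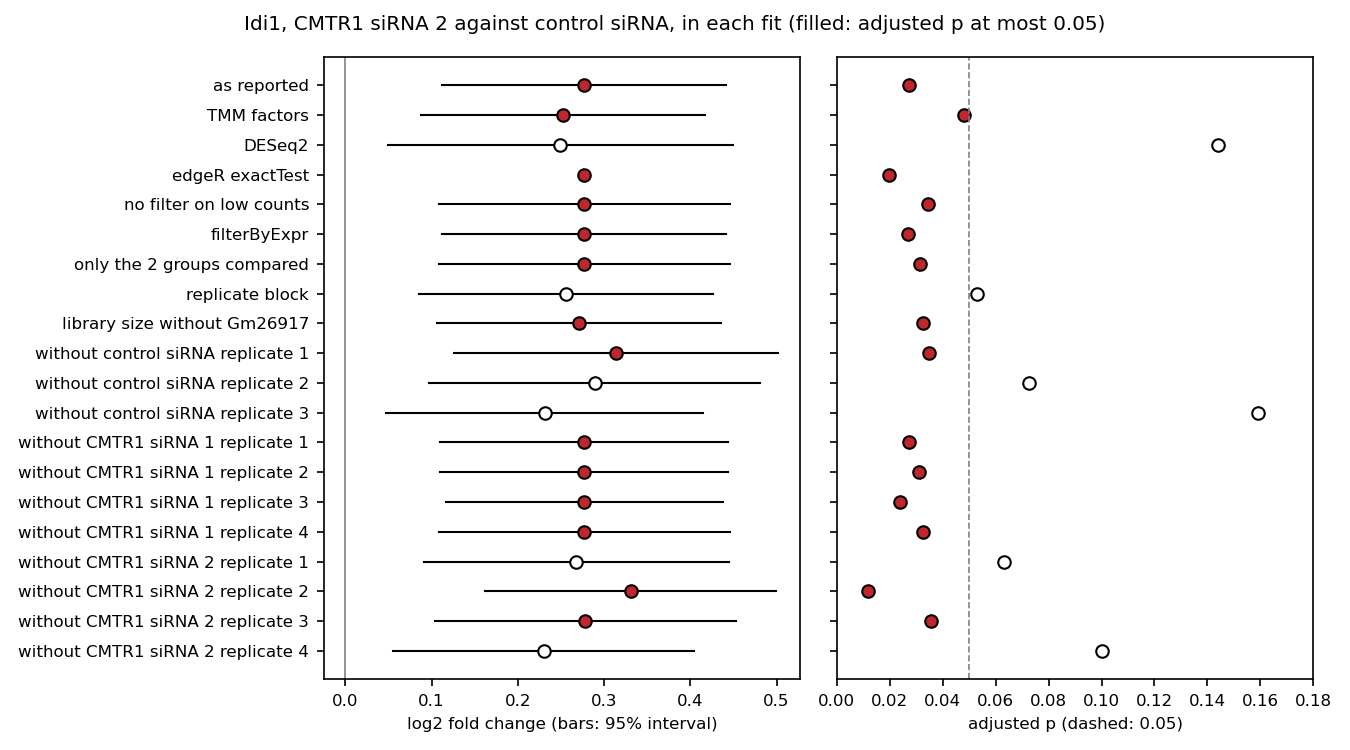
Idi1 with CMTR1 siRNA 2 against control siRNA in each fit (vertical axis): log2 fold change with its 95% interval (left; the exactTest gives no standard error, so no bar) and adjusted p (right), filled where it is at most 0.05. The estimate stays between 0.23 and 0.33 while the adjusted p runs from 0.0117 to 0.159, on both sides of the dashed threshold.

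Fdps makes geranyl and farnesyl diphosphate, the branch point to sterols, dolichol, ubiquinone and prenylated proteins. It was the least covered of the enzymes, with 62 to 90 reads per library. It had 9.27, 8.26 and 8.61 CPM in the control siRNA libraries, 10.98, 11.2, 9.11 and 10.02 with CMTR1 siRNA 1, and 8.81, 7.75, 10.4 and 10.1 with CMTR1 siRNA 2. Both CMTR1 siRNA groups overlapped the control range, although 3 of 4 siRNA 1 libraries were above it. Its log2 fold change was 0.25 ± 0.14 with siRNA 1 (edgeR adjusted p = 0.373) and 0.09 ± 0.14 with siRNA 2 (adjusted p = 0.771). The siRNA 1 interval, from 1.7% lower to 43.0% higher, was the widest of the 7, so a change of that size was not resolved at these read numbers.

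Sqle epoxidises squalene, the first oxygenation of the sterol branch and a step that limits its flux. It had 217, 213 and 213 CPM in the control siRNA libraries and 210, 214, 217 and 225 CPM with CMTR1 siRNA 1, which surround the control values. With CMTR1 siRNA 2 it had 234, 240.0, 224 and 239.6 CPM, all above every control library. The log2 fold change was 0.13 ± 0.05 with siRNA 2, 9.4% with an interval of 2.8% to 16.3%, and it did not pass the test over all genes (edgeR adjusted p = 0.0621). With siRNA 1 it was 0.02 ± 0.05 (adjusted p = 0.913), and just below 0 with TMM scaling. The difference of siRNA 2 from siRNA 1 was 0.11 ± 0.04 (adjusted p = 0.0909). Leaving out siRNA 2 replicate 3, the lowest of its group, moved Sqle past the threshold both against control (0.15, adjusted p = 0.0305) and against siRNA 1 (0.13, adjusted p = 0.0447).

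Lss closes the epoxide into lanosterol, the first sterol of the route. It had 130, 131 and 134 CPM in the control siRNA libraries, 143, 139, 131 and 131 with CMTR1 siRNA 1, and 129, 135, 132 and 132 with CMTR1 siRNA 2. The 3 groups overlapped. Its log2 fold change was 0.04 ± 0.05 with siRNA 1 (edgeR adjusted p = 0.732) and 0.00 ± 0.05 with siRNA 2 (adjusted p = 0.984), where TMM scaling gave -0.02. Its intervals were among the narrowest of the 7, from 3.7% lower to 10.3% higher with siRNA 1 and from 6.4% lower to 7.2% higher with siRNA 2.

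Dhcr7 reduces a ring double bond of 7-dehydrocholesterol to give cholesterol. It had 56.4, 55.9 and 60.03 CPM in the control siRNA libraries, 63.1, 68.0, 60.6 and 65.1 with CMTR1 siRNA 1, and 54.5, 67.4, 63.2 and 62.5 with CMTR1 siRNA 2. All 4 siRNA 1 libraries were above the controls, the nearest by a narrow margin, while siRNA 2 replicate 1 was below them. Fitted log2 fold changes were 0.16 ± 0.07 with siRNA 1 (edgeR adjusted p = 0.175) and 0.11 ± 0.07 with siRNA 2 (adjusted p = 0.313). The siRNA 1 interval ran from 2.3% to 22.6% higher.

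Between the 2 CMTR1 siRNAs the enzymes differed little. The libraries of siRNA 2 and siRNA 1 overlapped for all 7 enzymes, where 11.8% of all genes had separate libraries in this comparison. The median log2 difference, siRNA 2 less siRNA 1, was -0.04, with 2 of 7 above 0 (Idi1 and Sqle). The lowest was that of Fdps at -0.16 ± 0.13 and the highest that of Sqle at 0.11 ± 0.04.

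Over the 11 libraries the Pearson correlation of log2 CPM between pairs of enzymes had a median of 0.16 over 21 pairs, from -0.39 (Sqle and Lss) to 0.56 (Lss and Dhcr7, and Idi1 and Sqle), and 13 of 21 were above 0. Within groups, after removing each group's mean, the median was -0.26. These are descriptions over libraries that share groups and scaling, and a small r at these read numbers is no finding. The mean z-score of the 7 was -0.60 to -0.72 in the control libraries, 0.09 to 0.63 with siRNA 1 and -0.21 to 0.44 with siRNA 2.

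Of 7969 well expressed genes, those whose log2 CPM followed the mean z-score most closely over the 11 libraries were Spire1 (r = 0.94), Adgrb2 (0.94), Mapkap1 (0.94), Dip2c (0.93), Mpdz (0.93), Zfp41 (0.92), Cald1 (0.91) and Tubb6 (0.91). None of these 8 belongs to the sterol lists used here. They were chosen for this likeness, and their own differences between groups are no separate result.

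The other 14 enzymes of the route that were listed gave the 7 their context. With CMTR1 siRNA 1, edgeR called 0 of 14, against 4.67% of all genes. DESeq2 also called 0 of 14, and 450 of all 16073 genes. In edgeR, 4 of the 14 had an unadjusted p under 0.05, as had 2698 of all genes. The median log2 fold change of the 14 was 0.04. With CMTR1 siRNA 2, 3 of 14 were called as higher, against 6.17% of all genes, and 0 as lower (median 0.09), so that 4 of all 21 enzymes were called. The 3 are among 9 of the 14 that act after lanosterol, and the other 6 were not called, among them Nsdhl (-0.08) and Ebp (-0.13). The 3 were Cyp51, which starts the removal of a methyl group from lanosterol, Msmo1, which oxidises further methyl groups, and Hsd17b7, which reduces the ketone left there. Lss, the enzyme just before Cyp51, was at 0.00 with siRNA 2 and Dhcr7 at 0.11.

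Cyp51 had a log2 fold change of 0.22 ± 0.05 with CMTR1 siRNA 2 (edgeR adjusted p = 0.00647), kept in 18 of 19 alternatives and lost without control replicate 3. With siRNA 1 it was 0.03 ± 0.06 (adjusted p = 0.818), and the difference between the siRNAs, 0.18 ± 0.05, passed the test (adjusted p = 0.017) in all but the fits without siRNA 1 replicate 1 or siRNA 2 replicate 1. Msmo1 rose by 0.22 ± 0.06 with siRNA 2 (adjusted p = 0.0148), a call lost with DESeq2 and without control replicate 2 or 3. Hsd17b7 rose by 0.28 ± 0.09 (adjusted p = 0.0374), a call kept in 11 of 19 alternatives and lost with TMM factors (0.25, adjusted p = 0.0625), DESeq2, no filter on low counts, a replicate block, and without control replicate 2 or 3, or siRNA 2 replicate 1 or 4. With siRNA 1, Tm7sf2, a sterol reductase of this stretch, had the lowest p of the 14, at 0.30 ± 0.13 (adjusted p = 0.209).

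**Figure D4:**
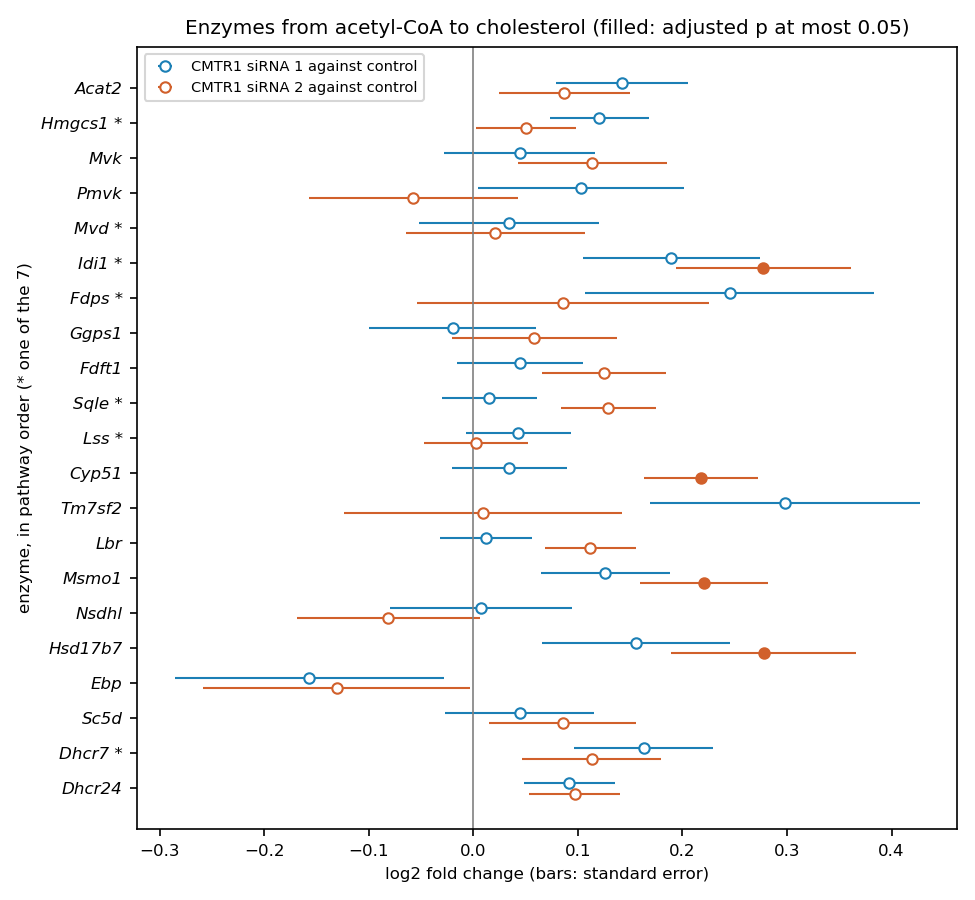
Log2 fold change with its standard error (horizontal axis) for 21 enzymes in pathway order (vertical axis, * for the 7), for each CMTR1 siRNA against control, filled where the adjusted p is at most 0.05. The 4 filled points, all of siRNA 2, are Idi1, Cyp51, Msmo1 and Hsd17b7, and Ebp is below 0 with both siRNAs.

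The regulators above the enzymes were measured too. Of 7 genes of SREBP control, 0 were called with CMTR1 siRNA 1 by edgeR and by DESeq2. DESeq2 called 450 of all 16073 genes with siRNA 1. In edgeR, 4 of the 7 had an unadjusted p under 0.05 with siRNA 1, as had 2698 of all 16073 genes. With siRNA 2 edgeR called 1 of the 7, Scap, which carries the SREBP precursor to the Golgi. Of all genes, edgeR called 4.67% with siRNA 1 and 9.72% with siRNA 2, 6.17% as higher. Scap rose by 0.26 ± 0.07 with siRNA 2 (edgeR adjusted p = 0.00719), lost only without control replicate 1 among 19 alternatives, and was at 0.19 ± 0.07 with siRNA 1 (adjusted p = 0.0831). With siRNA 1 it was called in 2 of 19 alternatives, with the replicate block (0.23, adjusted p = 0.0254) and without siRNA 1 replicate 3 (0.24, adjusted p = 0.0298). The block called 1 of the 7 regulators with siRNA 1 and 2 with siRNA 2, where it called 840 and 1486 of all 16073 genes. The medians of the 7 regulators were 0.08 and 0.03. Mbtps2, the site-2 protease, was called between the siRNAs (0.22 ± 0.07, edgeR adjusted p = 0.0377) but with neither siRNA against control. That call was kept in 12 of 19 alternatives. It was lost with DESeq2, with no filter, and without siRNA 1 replicate 1, 2 or 4, or siRNA 2 replicate 1 or 4. The edgeR test of any difference among the 3 groups also called Mbtps2 (adjusted p = 0.0453), as it did 13.7% of all genes.

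Of 14 other lipid genes that respond to SREBP, 2 were called as higher with each CMTR1 siRNA, against 2.71% of all genes with siRNA 1 and 6.17% with siRNA 2, and 0 as lower (medians 0.10 and 0.07). Scd2, a stearoyl-CoA desaturase, rose with both, by 0.30 ± 0.06 with siRNA 1 (edgeR adjusted p = 0.000858) and 0.35 ± 0.06 with siRNA 2 (adjusted p = 5.38e-05). With siRNA 1 the call was lost with DESeq2. Me1, malic enzyme, rose with siRNA 2 by 0.36 ± 0.08 (adjusted p = 0.00215), and Lpin1, a phosphatidate phosphatase, rose with siRNA 1 by 0.22 ± 0.07 (adjusted p = 0.048), a call kept in 11 of 19 alternatives and lost with TMM factors, DESeq2, and without control replicate 2 or 3, siRNA 1 replicate 1, 2 or 4, or siRNA 2 replicate 1. Scd1, another desaturase, was called between the siRNAs, at -0.30 ± 0.06 (adjusted p = 0.00131), and in all 19 alternatives. Against control it was at -0.18 ± 0.07 with siRNA 2 (adjusted p = 0.0835), and was called as lower with TMM factors (-0.21, adjusted p = 0.0443) and without siRNA 2 replicate 2 (-0.26, adjusted p = 0.0143).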

How the data were processed

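The authors deposited counts of reads per Ensembl gene for 11 RNA-seq libraries. According to the study's methods and the submitters' processing notes, adapters were cut with cutadapt, STAR placed the reads on GRCm38, Picard took out duplicates and featureCounts counted them by gene, a step whose strand setting is not given in the sources used here. In 10 of the 11 files 5 summary lines close the table, and these were left out (reads in no gene were 39.3% to 44.3% of the reads listed). Such lines have the style of HTSeq rather than featureCounts, so which program made the deposited counts is uncertain. The deposited gene counts total 6738478 to 8382318 per library. Counting error limits genes of few reads such as Fdps. Of the 54838 identifiers, 54809 were matched to GENCODE M21 for symbols, positions and exon lengths.

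Genes with more than 1 CPM in at least 4 libraries were tested with the quasi-likelihood test of edgeR 4.0.16 (R 4.3.3) in 1 model of the 3 groups, with library sizes as total counts. P-values were adjusted by Benjamini-Hochberg over 16073 genes, with calls at 0.05 or less. Intervals are the estimate ± 1.96 SE. The alternatives were TMM factors, DESeq2 1.42.0, edgeR's exactTest, filterByExpr, no filter, a fit of only the groups compared, a replicate block, library sizes without Gm26917 (4.86% to 6.34% of counts), and each library left out in turn.

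The enzymes and the lists were chosen with earlier results of these data known. The lists are 14 other sterol and mevalonate enzymes, 7 SREBP regulators, 14 other SREBP-responsive lipid genes, 6 genes of efflux, esterification and LXR, 12 users of non-sterol isoprenoids, and markers of 5 cell types. Of each list other than the markers, every gene called in a comparison and the gene of lowest p with each siRNA are named, apart from 1 gene that is not reported here. Genes most like the 7 were the 8 of highest Pearson r with their mean z-score, among tested genes with a mean log2 CPM (prior count 2) of at least 4 and no provisional symbol. The scripts were tested on simulated data. Python 3.11.15 made the tables and figures.

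Libraries are numbered 1 to 3 or 1 to 4 in each group, with no batch named. Deviations from group means of the same number had a mean correlation of 0.010 over 10 pairs (-0.057 to 0.062), so the numbers were not taken as pairs.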

Additional observations from a re-analysis of the deposited data

Results flagged for a closer look

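None of the 7 enzymes differed between the CMTR1 siRNAs by the test over all genes, and none had a library set apart within its group. Among the other named genes, the log2 difference of siRNA 2 from siRNA 1 passed the edgeR test for 4. A call in this comparison was itself a ground for naming a gene, so this number is no separate result. Of all genes, 7.44% were called in it. The difference was 0.18 for Cyp51 (adjusted p = 0.017), 0.22 for Mbtps2 (adjusted p = 0.0377), -0.30 for Scd1 (adjusted p = 0.00131) and 0.25 for Nus1 (adjusted p = 0.00177). In 42 groups of 4 libraries from 21 genes, 3 had a library far from the other 3, measured as its gap to the nearest over the range of the group. The gap was 0.870 of the range for the lowest siRNA 2 library of Tm7sf2, at 8.81 CPM, 0.889 for the lowest siRNA 1 library of Mbtps2, at 32.5 CPM, and 0.935 for the highest siRNA 1 library of Scd1, at 86.5 CPM. Chance flags about 1 in 20 such groups.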

How the results depend on the processing

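Idi1 with CMTR1 siRNA 2 was the only call among the 7 enzymes. The number of enzymes called with siRNA 2 was 0 with DESeq2 and 0 with the replicate block, and 0 to 2 when 1 library was left out. The test of any difference called 1 with filterByExpr, and 0 to 1 without 1 library, as did siRNA 2 against siRNA 1. With siRNA 1, 0 were called under each of the 19 alternatives. The cause was not tested. The median log2 fold change of the 7 with siRNA 1 was 0.10 with TMM factors, 0.10 with DESeq2 and 0.10 with the replicate block, and 0.10 to 0.15 without 1 library. With siRNA 2 it was 0.061 with TMM factors and 0.0578 with DESeq2, and 0.0686 to 0.1065 without 1 library, and between the siRNAs it was -0.076 to 0.0034 without 1 library. Estimates near 0 changed sign. Sqle with siRNA 1 was -0.005 with TMM factors, -0.008 with DESeq2 and -0.004 to 0.030 without 1 library. With siRNA 2, Mvd was -0.004 and -0.009, Lss -0.022 and -0.026, Tm7sf2 -0.016 and -0.021, and Nus1 -0.017 and -0.021 with TMM factors and DESeq2. Lss was -0.004 without Gm26917 in the library sizes, and with the replicate block, the fit that treats equal replicate numbers as a pairing, Tm7sf2 was -0.035 and Nus1 -0.011. Leaving out 1 library gave -0.050 to 0.088 for Mvd, -0.002 to 0.072 for Cyp51 and -0.110 to 0.003 for Abca1 with siRNA 1. With siRNA 2 it gave -0.053 to 0.074 for Mvd, -0.007 to 0.014 for Lss, -0.057 to 0.097 for Tm7sf2, -0.019 to 0.090 for Lpin1 and -0.027 to 0.043 for Nus1. Between the siRNAs it gave -0.087 to 0.071 for Mvd, -0.094 to 0.003 for Dhcr7 and -0.011 to 0.055 for Rabggtb. Calls over all genes moved by over 1.5 times with DESeq2: 450 against 751 with siRNA 1, 874 against 1562 with siRNA 2, 674 against 1196 between the siRNAs and 1356 against 2208 for any difference. Without 1 library they ranged over 355 to 850 with siRNA 1, 807 to 1667 with siRNA 2 and 724 to 1374 between the siRNAs. Fdps, at 62 to 90 reads per library, is limited by few reads. Whether depth or reads set apart as ambiguous made them few was not tested.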

Other observations

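Genes that handle cholesterol once it is made, or draw on its precursors, were measured beside the enzymes. Of 6 genes of sterol efflux, esterification and LXR, 1 was called as higher with CMTR1 siRNA 1, and 1 as higher and 1 as lower with siRNA 2 (median log2 fold changes 0.00 and 0.04). Of all genes, 2.71% were called as higher with siRNA 1 and 6.17% with siRNA 2. With siRNA 2, 571 of all 16073 were called as lower. Soat1, which esterifies cholesterol for storage, rose by 0.37 ± 0.06 (SE) with siRNA 1 (edgeR adjusted p = 4.36e-05) and by 0.23 ± 0.06 with siRNA 2 (adjusted p = 0.00855), the latter lost without control replicate 2 or 3. Abca1, a cholesterol exporter, fell by 0.31 on the log2 scale with siRNA 2 (adjusted p = 0.0452), a call kept in 8 of 19 alternatives. It was lost with DESeq2, no filter, only the groups compared, a replicate block, and without any 1 of the 3 control libraries, siRNA 1 replicate 4, or siRNA 2 replicate 1, 2 or 4.

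Of 12 users of non-sterol isoprenoids, 2 were called as lower and 0 as higher with siRNA 1, and 1 as lower and 0 as higher with siRNA 2 (medians -0.08 and 0.01). Among all 16073 genes tested, 316 were called as lower with siRNA 1 and 571 with siRNA 2. The log2 fold change was above 0 for 2 of the 12 with siRNA 1 and 7 with siRNA 2. For all genes the shares above 0 were 56.8% and 57.1%. Rabggtb, a subunit of the enzyme that geranylgeranylates Rab proteins, fell by 0.27 with siRNA 1 (adjusted p = 0.000838) and by 0.24 with siRNA 2 (adjusted p = 0.00143) in edgeR. Nus1, a subunit of the enzyme that makes dolichol, fell by 0.25 with siRNA 1 (adjusted p = 0.00686), lost without control replicate 1, and was at 0.01 with siRNA 2 (adjusted p = 0.955).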
